A study of Mus musculus with 6 samples.

Results

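The genes described here are those whose symbol begins with Nduf, pseudogenes apart, in RNA-seq of HL-1 cells, a mouse atrial cardiomyocyte line that divides in culture. Of 32739 genes in the files, 50 carried such a symbol and 46 remained after 4 annotated pseudogenes were removed. They comprise 7 nuclear core subunits, 29 accessory subunits, 8 assembly factors (the Ndufaf genes), and Ndufa4 and Ndufa4l2, which keep the name although Ndufa4 is now placed in complex IV. Ndufb1 was not analysed here. One group of 3 libraries received 5 µM BRL (BRL37344, described by the series as a β3-adrenergic receptor agonist) and the other group of 3 received vehicle. The series design gives 6 h of hypoxia then 1 h with oxygen for the cells of both groups, with no group free of that stress; the sample descriptions read ReOx7h, and whether this names the sum of these times is not stated. The comparison asks what the agonist changed in the transcripts of cells under this stress. The sources used here do not say when BRL was added to these cells, nor whether replicates are separate cultures, so p-values measure the spread between these libraries, which may be technical.

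Complex I, or NADH:ubiquinone oxidoreductase, is the entry point of electrons into the mitochondrial respiratory chain. It is an L-shaped assembly with a matrix arm, which oxidises NADH and passes the electrons along iron-sulfur clusters to ubiquinone, and a membrane arm, which pumps protons. Its core subunits, shared with the bacterial enzyme, are encoded partly in the nucleus and partly in mitochondrial DNA; accessory subunits surround the core, and assembly factors help to build the complex without staying in it. In heart muscle the complex supplies much of the drive for ATP synthesis and is a site of radical production when oxygen returns after ischaemia.

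Total expected counts were 6812810 to 8332472 in BRL libraries and 4440168 to 5060049 in vehicle libraries. BRL replicate 1 stood apart. Mitochondrially encoded RNA took 5.03% of its counts (Wilson 95% interval 5.01% to 5.05%, which covers counting error only), against 19.98% and 21.9% in the other BRL libraries and 16.5% to 20.2% in vehicle libraries. Counts of members called are therefore also given without it, and members described in full have their values library by library. All 8 cardiomyocyte markers passed the filter on low counts. Of these 2, Myh6 and Pln, were lower at adjusted p under 0.05, where 1.79% of all genes were, and the others did not pass. The 8 summed to 3865, 5068 and 5279 CPM in BRL replicates 1, 2 and 3, against 6943, 7617 and 7738 CPM in vehicle (counts scaled to library size with edgeR's TMM factors). Smooth muscle markers summed to 1217, 2323 and 2566 CPM in BRL replicates 1, 2 and 3, against 2981, 3353 and 3177 CPM in vehicle. Of these 3 were tested and 0 passed. The 4 listed markers each of fibroblasts, endothelium and leukocytes summed to at most 4.63 CPM in any BRL library and 5.46 CPM in any vehicle library, with Dcn, Lum, Emcn, Ptprc, Csf1r and Lyz2 at 0 counts in all 6. What part these shifts have in the values below was not tested. In bulk RNA, fewer cells that express a gene and less RNA per cell cannot be told apart.

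With BRL, complex I transcripts lay mostly a little above vehicle, but no member passed the test over all genes. Of the 46 members 45 passed the filter on low counts, and 38 of these had a log2 fold change above 0 and 7 below, with a median of 0.18. Over all 12047 genes tested the median was 0.01, and 50.7% lay above 0. In the quasi-likelihood test of edgeR, adjusted by Benjamini-Hochberg over every gene tested, 0 members were higher and 0 lower at adjusted p under 0.05, where 1.01% of all genes were higher and 1.79% lower. At an unadjusted p under 0.05, 12 members (26.7%) were higher and 0 lower, against 11.6% and 10.8% of all genes. That count of 12 moved when a library was left out. It was 27 (60.0%, where 17.8% of all genes were higher) without BRL replicate 1, 4 (8.89%, against 9.95%) without BRL replicate 2 and 8 (17.8%, against 11.2%) without BRL replicate 3. It was 7 (15.6%, against 8.49%), 7 (15.6%, against 6.75%) and 4 (8.89%, against 6.30%) without vehicle replicates 1, 2 and 3 in turn, 5 (11.1%, against 8.63%) with DESeq2, and 6 (13.3%, against 10.7%) with a trend on transcript length and GC content removed. Library totals gave 14 (31.1%, against 10.8%) and upper-quartile factors 9 (20.0%, against 11.1%). The count was 11 with limma-voom (24.4%, against 10.6%) and 11 with a replicate block (24.4%, against 10.2%). With no filter on low counts it was 14 (30.4%, against 8.61%), and without mitochondrially encoded genes 12 (26.7%, against 12.2%). At the adjusted threshold, DESeq2 called 1 member higher, Ndufb8 (where 2.01% of all genes were higher and 2.91% lower), limma-voom 0 (0.789% and 1.53%), and edgeR without the filter on low counts 2, Ndufs8 and Ndufa12 (1.40% and 1.64%). In 16 members (35.6%) every BRL library lay above every vehicle library and in 0 every BRL library lay below, where the backgrounds are 16.0% and 15.5%. The members of smallest p were Ndufs8, Ndufb8 and Ndufa12.

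**Figure D1:**
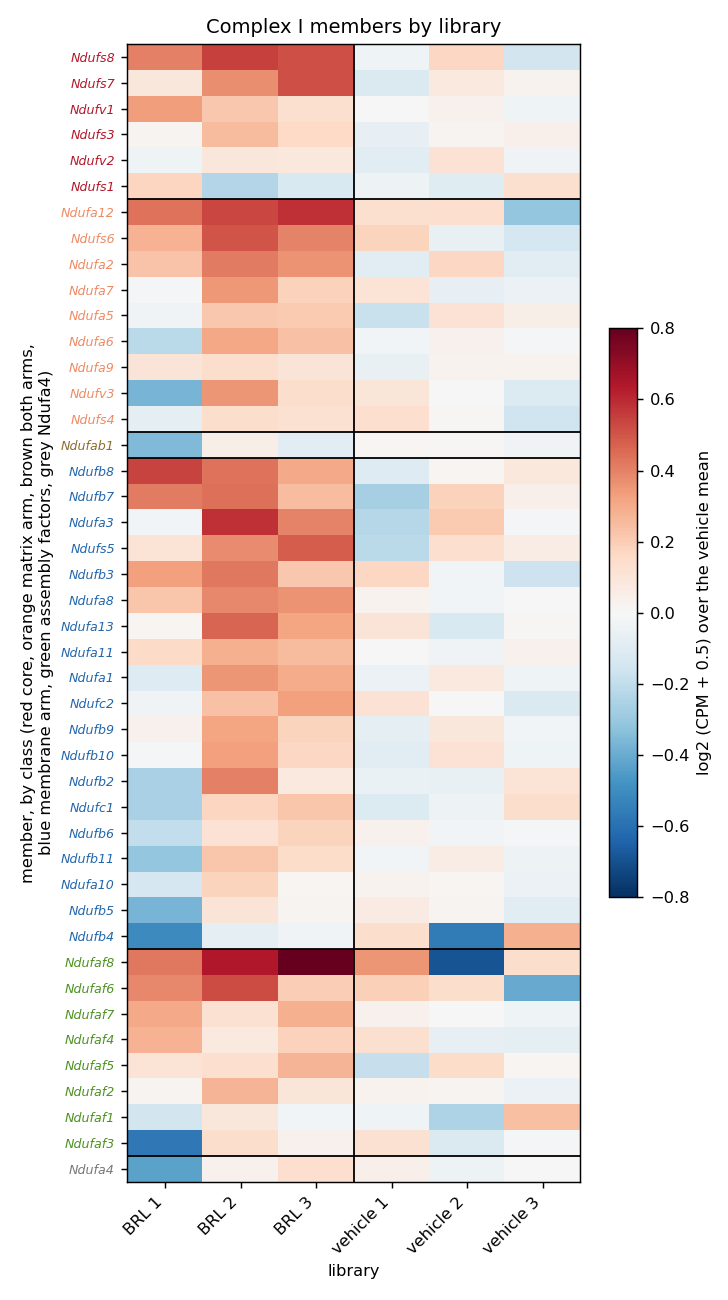
Level of tested members (rows, by class) in each library (columns) as log2 of CPM plus 0.5 over the vehicle mean, red above and blue below that mean. Most rows are red in BRL replicates 2 and 3, while BRL replicate 1 is blue in many accessory subunits.

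The promoters of these members and of Ndufs6 are shown because Ndufs8, Ndufb8 and Ndufa12 had the smallest p and Ndufs6, also among the named genes, held the NRF1 match described below. Each line gives the 250 bases before the RefSeq start (build GRCm38.p6, not the NCBIM37 build of the files), 5′ to 3′ in the direction of the gene, with matches to the motifs searched in capitals. They lie at chr19:3912775-3913024 on the minus strand, chr19:44555443-44555692 on the minus strand, chr10:94198785-94199034 on the plus strand and chr13:73328483-73328732 on the minus strand, in the order shown.
Ndufs8: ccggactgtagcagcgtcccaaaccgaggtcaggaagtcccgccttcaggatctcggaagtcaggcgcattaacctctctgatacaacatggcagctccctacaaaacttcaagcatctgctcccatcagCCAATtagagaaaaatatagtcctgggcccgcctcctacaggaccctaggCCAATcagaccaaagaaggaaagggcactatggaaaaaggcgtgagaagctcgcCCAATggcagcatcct
Ndufb8: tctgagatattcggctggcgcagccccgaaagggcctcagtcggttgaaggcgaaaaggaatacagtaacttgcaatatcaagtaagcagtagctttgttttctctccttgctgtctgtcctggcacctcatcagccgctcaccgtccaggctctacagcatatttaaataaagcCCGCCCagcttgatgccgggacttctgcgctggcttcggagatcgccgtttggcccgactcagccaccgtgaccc
Ndufa12: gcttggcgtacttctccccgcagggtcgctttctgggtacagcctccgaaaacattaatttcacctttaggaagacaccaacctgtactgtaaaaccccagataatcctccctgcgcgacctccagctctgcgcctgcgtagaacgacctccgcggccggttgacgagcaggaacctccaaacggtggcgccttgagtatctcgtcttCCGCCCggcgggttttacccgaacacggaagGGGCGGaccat
Ndufs6: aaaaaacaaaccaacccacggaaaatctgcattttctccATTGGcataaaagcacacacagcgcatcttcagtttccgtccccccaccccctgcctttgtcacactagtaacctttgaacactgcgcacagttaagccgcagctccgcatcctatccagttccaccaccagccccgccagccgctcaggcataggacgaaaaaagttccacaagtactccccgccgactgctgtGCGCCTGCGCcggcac
A match is a description of letters and not a site. In the printed stretches the capitals are CCAAT boxes (CCAAT) in Ndufs8, GC boxes (GGGCGG) in Ndufb8 and Ndufa12, and a CCAAT box and an NRF1 core match in Ndufs6, with matches on the other strand included.

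RefSeq promoters, from 250 bases before to 50 after the start, were at hand for 40 of the 46 members, and both strands were searched; matches of different motifs were counted separately even where they overlapped. The core of the site of NRF1, a factor known for driving nuclear genes of respiration, was in 9 members (22.5%) and in 5.19% of all 27025 genes with a promoter. Those 9 were 7 accessory subunits and the assembly factors Ndufaf4 and Ndufaf5, with 0 of 5 core subunits. A YY1 core (AAGATGGCG) was in 6 members (15.0%), against 1.64% of all genes. The ETS core bound by GABP (CCGGAAG) was in 6 (15.0%), against 9.93%, and Ndufs8 and Ndufs3 were the core subunits among them; the match in Ndufs8 lies past the start and outside the printed stretch. A full cyclic AMP response element (TGACGTCA) was in Ndufa10, Ndufa11 and Ndufb2, which is 7.5% of members and 2.03% of all genes. The site of estrogen-related receptors (AAGGTCA) was in 3 members (7.5% against 5.38%), GC boxes in 21 (52.5% against 38.2%), CCAAT boxes in 14 (35.0% against 41.1%) and a TATA box (TATAAA) in 4 (10% against 15.7%). Member promoters had a median GC content of 59.2%, against 52.8% over all genes. The genes compared with were not limited to those expressed in these cells and were not matched for GC content.

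The core subunits lay above vehicle in 6 of 7 cases, and 4 of 7 had every BRL library above every vehicle library, as had 16.0% of all genes. Ndufv1, which binds FMN and oxidises NADH, had 139, 128 and 120.4 CPM in BRL replicates 1, 2 and 3, against 109.8, 113 and 107 CPM in vehicle replicates 1, 2 and 3. All 3 BRL libraries lay above all 3 vehicle libraries, and the log2 fold change was 0.23 ± 0.10 (SE; adjusted p = 0.203 in edgeR). Ndufv2, its partner with an iron-sulfur cluster, had 135, 147 and 146 CPM in BRL replicates 1, 2 and 3, against 129, 149 and 135 CPM in vehicle replicates 1, 2 and 3. Its groups overlapped, with a log2 fold change of 0.05 ± 0.10 (SE; adjusted p = 0.809 in edgeR). Ndufs1, the largest subunit of the matrix arm and carrier of several iron-sulfur clusters, had 317, 239 and 258 CPM in BRL replicates 1, 2 and 3, against 274, 262 and 307 CPM in vehicle replicates 1, 2 and 3. BRL replicate 1 held the highest of these values and BRL replicate 2 the lowest, so that the groups overlapped, at −0.05 ± 0.13 (SE; adjusted p = 0.855 in edgeR). Counts of Ndufs1 were not whole numbers in any library, and its exons overlap those of Eef1b2 on the opposite strand.

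The subunits near the ubiquinone site follow. Ndufs8, which carries iron-sulfur clusters on the way to ubiquinone, had 36.8, 40.9 and 40.0 CPM in BRL replicates 1, 2 and 3, against 27.1, 31.2 and 25.1 CPM in vehicle replicates 1, 2 and 3. Every BRL library was above every vehicle library, and its log2 fold change of 0.50 ± 0.12 (SE; adjusted p = 0.0644 in edgeR) had the smallest p of all members. Ndufs7, which holds the last cluster before ubiquinone, had 26.1, 31.9 and 35.4 CPM in BRL replicates 1, 2 and 3, against 22.6, 25.9 and 25.1 CPM in vehicle replicates 1, 2 and 3. The lowest BRL library, replicate 1, lay just above the highest vehicle library, at 0.34 ± 0.14 (SE; adjusted p = 0.200 in edgeR). Ndufs3, a structural core subunit of the matrix arm, had 70.7, 83.3 and 78.0 CPM in BRL replicates 1, 2 and 3, against 66.7, 70.7 and 71.6 CPM in vehicle replicates 1, 2 and 3. BRL replicate 1 lay among the vehicle values, at 0.15 ± 0.10 (SE; adjusted p = 0.418 in edgeR). The exons of Ndufs3 overlap those of Kbtbd4 on the opposite strand.

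**Figure D2:**
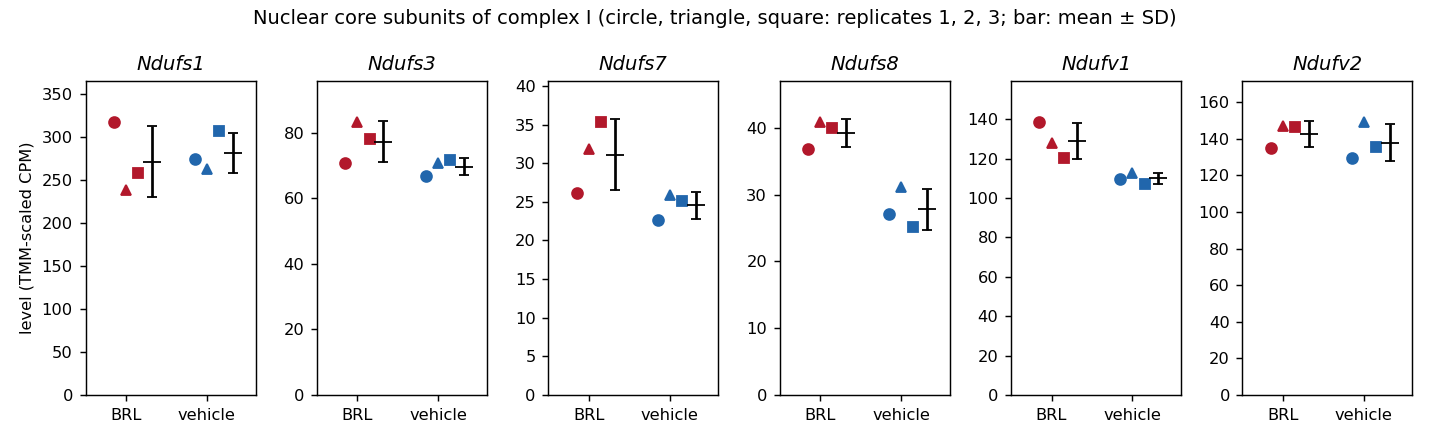
CPM of 6 nuclear core subunits in each library (circle, triangle and square for replicates 1, 2 and 3), with mean ± SD over 3 libraries as a bar and axes that start at 0. Ndufs7, Ndufs8 and Ndufv1 have no overlap between BRL (left) and vehicle (right).

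Accessory subunits, which stabilise the complex and take part in its assembly, had a log2 fold change above 0 in 26 of 29 cases, with a median of 0.18, and in 9 of 29 every BRL library lay above every vehicle library, against 16.0% of all genes. On the matrix arm, 9 of 9 lay above 0 with a median of 0.14, and on the membrane arm 17 of 19 with a median of 0.19; Ndufab1, the acyl carrier protein that sits on both arms, had −0.12. The 8 with the smallest p, 3 of the matrix arm and 5 of the membrane arm, are given in full. Ndufa12, a matrix arm subunit related to the assembly factor Ndufaf2, had 41.3, 44.4 and 46.0 CPM in BRL replicates 1, 2 and 3, against 33.3, 33.5 and 24.5 CPM in vehicle replicates 1, 2 and 3. The groups did not overlap, at 0.53 ± 0.14 (SE; adjusted p = 0.0800 in edgeR); its counts were not whole in any library. Ndufs6, a zinc-binding subunit added late in assembly, had 22.3, 26.1 and 24.3 CPM in BRL replicates 1, 2 and 3, against 20.8, 17.6 and 16.6 CPM in vehicle replicates 1, 2 and 3. These groups were also apart, at 0.40 ± 0.14 (SE; adjusted p = 0.138 in edgeR), and Ndufs6 shares exon sequence with Mrpl36 on the opposite strand. Ndufa2, a small subunit with a thioredoxin fold, had 33.0, 37.8 and 36.3 CPM in BRL replicates 1, 2 and 3, against 26.4, 31.6 and 26.5 CPM in vehicle replicates 1, 2 and 3. Its lowest BRL library stayed above its highest vehicle library, at 0.34 ± 0.12 (SE; adjusted p = 0.15 in edgeR); its exons overlap those of Tmco6 on the opposite strand.

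On the membrane arm, Ndufb8 had 108, 101 and 92.2 CPM in BRL replicates 1, 2 and 3, against 69.3, 75.3 and 78.9 CPM in vehicle replicates 1, 2 and 3. BRL replicate 1 held the highest value here, and the groups were apart, at 0.43 ± 0.10 (SE; adjusted p = 0.0672 in edgeR). Over 15 alternatives the log2 fold change of Ndufb8 ranged from 0.12 to 0.49, and it passed in 2. It was lowest without BRL replicate 1 and with a trend on length and GC content removed (adjusted p = 0.38 in edgeR). Ndufa8, a subunit with paired cysteine motifs at the intermembrane side, had 59.2, 66.3 and 65.2 CPM in BRL replicates 1, 2 and 3, against 51.7, 49.8 and 50.6 CPM in vehicle replicates 1, 2 and 3. All BRL values exceeded all vehicle values, at 0.33 ± 0.10 (SE; adjusted p = 0.102 in edgeR). Ndufb3, a small subunit of the distal membrane arm, had 41.1, 44.0 and 38.0 CPM in BRL replicates 1, 2 and 3, against 36.7, 32.2 and 29.1 CPM in vehicle replicates 1, 2 and 3. BRL replicate 3 came closest to vehicle, at 0.33 ± 0.12 (SE; adjusted p = 0.170 in edgeR). Ndufb7, which has cysteine motifs like those of Ndufa8, had 26.1, 26.5 and 23.2 CPM in BRL replicates 1, 2 and 3, against 16.1, 22.2 and 20.0 CPM in vehicle replicates 1, 2 and 3. The groups did not overlap, at 0.38 ± 0.15 (SE; adjusted p = 0.181 in edgeR). Ndufa11, a membrane-embedded subunit, had 52.8, 57.9 and 56.7 CPM in BRL replicates 1, 2 and 3, against 47.4, 46.5 and 48.5 CPM in vehicle replicates 1, 2 and 3. The exons of Ndufa11 overlap those of Vmac on the opposite strand, and its groups were apart, at the smallest log2 fold change of the 8, 0.23 ± 0.09 (SE; adjusted p = 0.197 in edgeR).

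The other 21 accessory subunits ranged in log2 fold change from −0.19 to 0.34 with edgeR adjusted p between 0.207 and 0.917, and 18 lay above 0. The 3 below 0 were Ndufab1, Ndufb5 and Ndufb4, and Ndufa9 was the one among the 21 whose groups did not overlap. Ndufb4 is uncertain, because the files split its reads with Ndufb4c, a processed pseudogene in GENCODE M21. Ndufb4 had 9.11, 12.5 and 12.9 CPM in BRL replicates 1, 2 and 3, against 14.5, 8.79 and 16.2 CPM in vehicle replicates 1, 2 and 3. Ndufb4c had more than its parent gene in each library, at 32.5, 49.2 and 49.3 CPM in BRL and 40.5, 46.9 and 36.6 CPM in vehicle. Summed, the pair had 41.6, 61.7 and 62.2 CPM in BRL and 55.0, 55.7 and 52.8 CPM in vehicle, so BRL replicate 1 lay below and the other BRL libraries above vehicle. The other removed pseudogenes had at most 3.48 counts in any library.

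Assembly factors had a log2 fold change above 0 in 6 of 8 cases, a median of 0.18, and every BRL library above every vehicle library in 3 of 8, where 16.0% of all genes had this; 0 had an unadjusted p under 0.05, against 11.6% of all genes higher and 10.8% lower. Ndufaf8, a small protein that works with Ndufaf5, had 3.30, 3.93 and 5.12 CPM in BRL replicates 1, 2 and 3, against 3.13, 1.26 and 2.63 CPM in vehicle replicates 1, 2 and 3. All BRL libraries were higher, at 0.82 ± 0.37 (SE; adjusted p = 0.236 in edgeR), but on 25 to 42 counts per BRL library and 6 to 14 per vehicle library. Ndufaf5, which hydroxylates an arginine of Ndufs7, had 18.0, 18.3 and 20.1 CPM in BRL replicates 1, 2 and 3, against 14.5, 18.4 and 16.8 CPM in vehicle replicates 1, 2 and 3. Vehicle replicate 2 lay within the BRL range, at 0.18 ± 0.14 (SE; adjusted p = 0.490 in edgeR). Ndufaf6, an early factor of the membrane arm, had 9.77, 10.8 and 8.53 CPM in BRL replicates 1, 2 and 3, against 8.50, 8.16 and 5.46 CPM in vehicle replicates 1, 2 and 3. Its groups did not overlap, although BRL replicate 3 and vehicle replicate 1 nearly met, at 0.40 ± 0.22 (SE; adjusted p = 0.332 in edgeR).

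Ndufaf7, a protein arginine methyltransferase, had 24.2, 21.2 and 23.8 CPM in BRL replicates 1, 2 and 3, against 19.9, 19.5 and 19.0 CPM in vehicle replicates 1, 2 and 3. All BRL values were the higher, at 0.24 ± 0.12 (SE; adjusted p = 0.266 in edgeR), with counts that were not whole. Ndufaf4 had 60.5, 52.5 and 56.6 CPM in BRL replicates 1, 2 and 3, against 54.4, 47.5 and 47.3 CPM in vehicle replicates 1, 2 and 3. Vehicle replicate 1 exceeded the lowest BRL library, at 0.19 ± 0.11 (SE; adjusted p = 0.348 in edgeR). Ndufaf3, which binds Ndufaf4 in building the ubiquinone module, had 3.83, 6.6 and 6.09 CPM in BRL replicates 1, 2 and 3, against 6.49, 5.44 and 5.87 CPM in vehicle replicates 1, 2 and 3. BRL replicate 1 held its lowest value, at −0.11 ± 0.27 (SE; adjusted p = 0.853 in edgeR), and its exons overlap the far more abundant Impdh2 (115 to 129 CPM in BRL and 96.9 to 104 CPM in vehicle). Ndufaf2, which holds the place of Ndufa12 during assembly, had 14.7, 17.6 and 15.5 CPM in BRL replicates 1, 2 and 3, against 14.8, 14.7 and 13.9 CPM in vehicle replicates 1, 2 and 3. Its groups overlapped, at 0.14 ± 0.14 (SE; adjusted p = 0.609 in edgeR), whereas those of Ndufa12 did not. Ndufaf1, part of the membrane arm assembly complex with Ecsit and Acad9, had 9.90, 11.8 and 10.8 CPM in BRL replicates 1, 2 and 3, against 10.7, 9.21 and 13.1 CPM in vehicle replicates 1, 2 and 3. The groups overlapped, at −0.03 ± 0.19 (SE; adjusted p = 0.955 in edgeR).

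Ndufa4, the complex IV subunit, had 161, 222 and 238 CPM in BRL replicates 1, 2 and 3, against 223, 211 and 216 CPM in vehicle replicates 1, 2 and 3. BRL replicate 1 was its lowest library and BRL replicate 3 its highest, at −0.07 ± 0.14 (SE; adjusted p = 0.824 in edgeR). Ndufa4l2, a homologue known as a target of hypoxia-inducible factor, had 0, 1 and 2 counts in BRL replicates 1, 2 and 3, against 0, 1 and 1 counts in vehicle replicates 1, 2 and 3. These lie under the floor of 3 counts (0.360 to 0.440 CPM in BRL libraries and 0.593 to 0.676 CPM in vehicle libraries), so its transcript was not detectable above that floor and no fold is given. Of the assembly factors with other names, 10 were tested and 0 passed in either direction; 8 lay above 0, with a median of 0.13. The smallest p was that of Ecsit, which had 50.3, 51.4 and 47.9 CPM in BRL replicates 1, 2 and 3, against 37.8, 44.0 and 36.0 CPM in vehicle replicates 1, 2 and 3. Its groups were apart, at 0.35 ± 0.11 (SE; adjusted p = 0.125 in edgeR). Without BRL replicate 1 it passed in edgeR (adjusted p = 0.0251, and 0.0251 to 0.402 over 15 alternatives). Ecsit was the 1 of these 10 factors called higher in that fit, where 10.3% of all genes were higher.

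By class median, the accessory subunits differed more between the BRL libraries than the core subunits did. As the median over members of log2 CPM (0.5 added) relative to the vehicle mean, accessory subunits stood at −0.02, 0.33 and 0.22 in BRL replicates 1, 2 and 3, and core subunits at 0.18, 0.22 and 0.13; vehicle libraries lay between −0.02 and 0.01 for accessory and between −0.04 and 0.04 for core subunits. Assembly factors were at 0.20, 0.14 and 0.19 in the BRL libraries and between −0.03 and 0.08 in vehicle. BRL replicate 1 was the lowest BRL library in 25 of 29 accessory subunits (86.2%), in 4 of 7 core subunits and in 45.2% of all genes tested. Among the members in which it was the highest BRL library were the core subunits Ndufs1 and Ndufv1, the assembly factors Ndufaf4 and Ndufaf7, and Ndufb8. In 6 accessory subunits, Ndufa1, Ndufa6, Ndufb6, Ndufb11, Ndufc1 and Ndufv3, BRL replicates 2 and 3 lay above all vehicle libraries and BRL replicate 1 below all of them. Core subunits moved in both directions, which a class median does not show. BRL replicate 1 minus the mean of BRL replicates 2 and 3 was 0.35 (log2) for Ndufs1 and −0.35 for Ndufs7. The difference between classes was not tested, since members are not replicates.

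Without BRL replicate 1, 16 of 45 members (35.6%) were higher and 0 lower at adjusted p under 0.05 by edgeR, where 10.3% of all genes were higher and 10.9% lower. They were the core subunits Ndufs7 and Ndufs8 and 14 accessory subunits, and 0 assembly factors. Besides Ndufa2, Ndufa8, Ndufa11, Ndufa12, Ndufb3, Ndufb8 and Ndufs6, the accessory subunits were Ndufa1, Ndufa3, Ndufa6, Ndufa13, Ndufb9, Ndufc2 and Ndufs5. Their log2 fold changes in that fit were 0.25 to 0.58 with adjusted p of 0.00313 to 0.04999, and over 15 alternatives the adjusted p of these 16 ranged from 0.00313 to 0.952. Ndufs1, the longest core transcript, had −0.17 in that fit (adjusted p = 0.125, and 0.125 to 1.00 over the alternatives). The median log2 fold change was 0.27 for accessory and 0.18 for core subunits in that fit, against 0.18 and 0.15 with all libraries. Without BRL replicate 2 it was 0.10 for accessory and 0.12 for core subunits, and over all members 0.11 in place of 0.18.

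The 7 accessory subunits that passed without BRL replicate 1 and are not described above were picked here after their values were seen. Ndufa13, known also as the cell death regulator GRIM-19, had 36.6, 50.3 and 45.2 CPM in BRL replicates 1, 2 and 3, against 38.9, 33.3 and 36.4 CPM in vehicle replicates 1, 2 and 3. Its log2 fold change was 0.40 ± 0.10 (SE) without BRL replicate 1 and 0.28 ± 0.14 with it. BRL replicate 1 lay among the vehicle libraries, and the other BRL libraries above them. Ndufa1, a single-pass membrane subunit encoded on the X chromosome, had 50.8, 70.1 and 67.4 CPM in BRL replicates 1, 2 and 3, against 53.0, 57.8 and 53.4 CPM in vehicle replicates 1, 2 and 3. Here BRL replicate 1 was the lowest of all 6 libraries, and the log2 fold change was 0.33 ± 0.08 (SE) without BRL replicate 1 and 0.20 ± 0.14 with it. Ndufa6, a matrix arm subunit of the LYR motif family, had 74.6, 108 and 102 CPM in BRL replicates 1, 2 and 3, against 85.5, 88.7 and 85.8 CPM in vehicle replicates 1, 2 and 3. BRL replicate 1 was again the lowest, and the log2 fold change was 0.28 ± 0.07 (SE) without BRL replicate 1 and 0.13 ± 0.14 with it. Ndufb9, a further LYR family protein and the most abundant complex I member per length, had 170.2, 207 and 188 CPM in BRL replicates 1, 2 and 3, against 158, 178 and 164 CPM in vehicle replicates 1, 2 and 3. BRL replicate 1 lay within the vehicle range, and the log2 fold change was 0.25 ± 0.07 (SE) without BRL replicate 1 and 0.18 ± 0.11 with it. Ndufa3, a small membrane arm subunit, had 34.9, 53.4 and 46.8 CPM in BRL replicates 1, 2 and 3, against 30.2, 41.0 and 35.0 CPM in vehicle replicates 1, 2 and 3. BRL replicate 1 lay among the vehicle values, and the log2 fold change was 0.50 ± 0.11 (SE) without BRL replicate 1 and 0.34 ± 0.18 with it. Ndufc2, a membrane arm subunit, had 64.2, 76.8 and 82.3 CPM in BRL replicates 1, 2 and 3, against 70.7, 65.1 and 60.3 CPM in vehicle replicates 1, 2 and 3. BRL replicate 1 was second lowest of the 6, and the log2 fold change was 0.29 ± 0.09 (SE) without BRL replicate 1 and 0.19 ± 0.12 with it. Ndufs5, a subunit with cysteine motifs at the intermembrane side, had 38.0, 45.9 and 49.5 CPM in BRL replicates 1, 2 and 3, against 30.2, 38.7 and 36.6 CPM in vehicle replicates 1, 2 and 3. BRL replicate 1 lay just under vehicle replicate 2, and the log2 fold change was 0.44 ± 0.10 (SE) without BRL replicate 1 and 0.34 ± 0.14 with it.

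**Figure D3:**
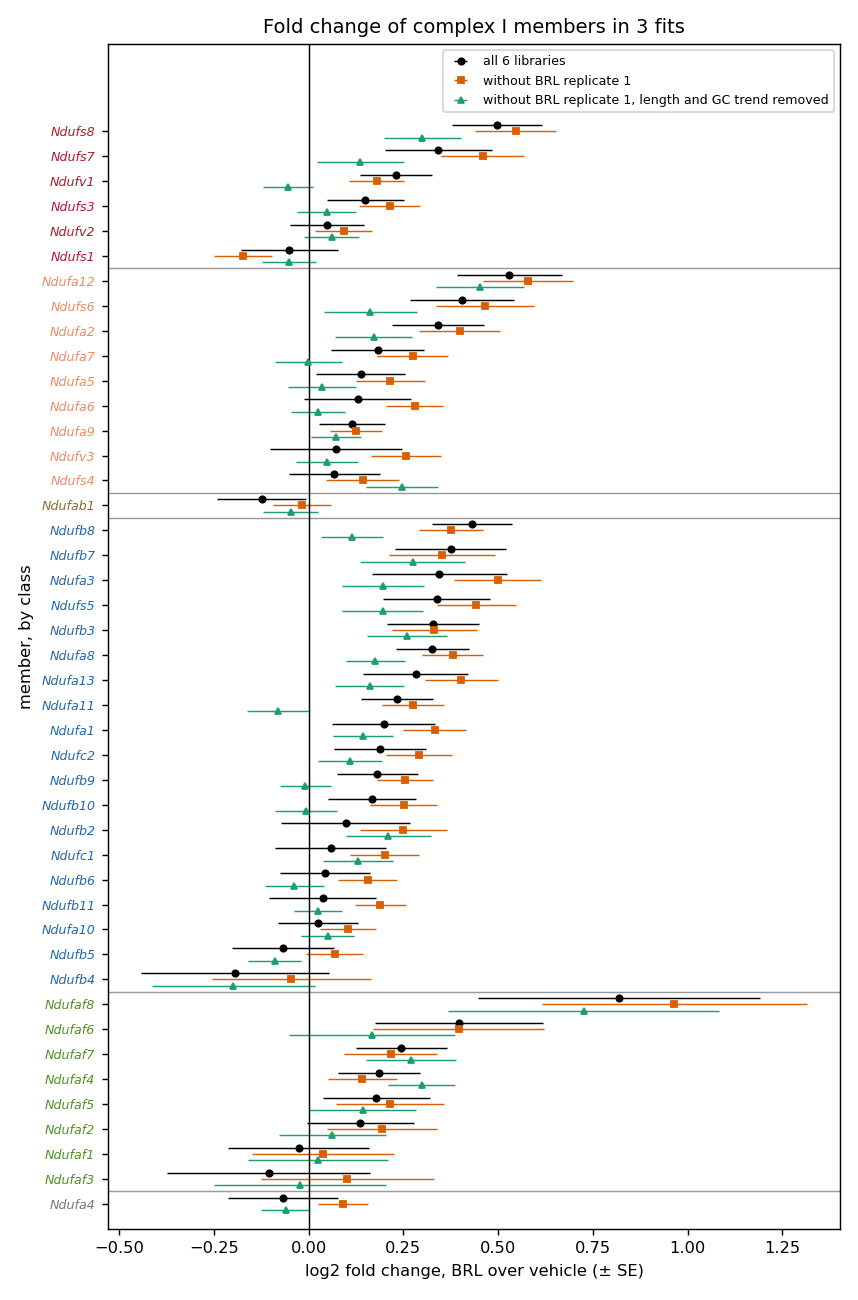
Log2 fold change of BRL over vehicle (± SE) of tested members, by class, in 3 fits. Without BRL replicate 1 (squares) most accessory subunits move to the right of the fit with all libraries (circles), and after removal of the length and GC trend too (triangles) most move back towards 0.

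These transcripts are short and the libraries differed by transcript length. Member transcripts had a median length of 763 bases, against 2008 bases over all genes tested with a length. Over all genes, the difference of BRL replicates 2 and 3 from vehicle was smaller in longer transcripts (Spearman −0.27 over 11750 genes) and increased with GC content (0.39), and genes of at most 1000 bases had a median difference of 0.17 (log2), against −0.02 for longer ones. Among the 45 tested members the same rank correlations were −0.36 with length and 0.57 with GC content, given as descriptions, since the points share the same libraries. The median of this difference was 0.27 over the 32 members of at most 1000 bases and 0.13 over the 13 longer members. Short genes were lower in BRL replicate 1 than in the mean of BRL replicates 2 and 3. The median of this difference was −0.18 over all short genes and −0.24 over the 32 short members. The mean of BRL replicates 2 and 3 enters both differences with opposite sign, so opposite trends are partly built in. Relative to the vehicle mean, the median log2 level of the 45 tested members in BRL replicate 1 was 0.02. When each library's trend on length and GC content was removed, the median log2 fold change of all members was 0.07 in place of 0.18, with 0.04 for core, 0.07 for accessory and 0.19 for assembly genes, and 0 members passed, where 0.963% of all genes were higher and 1.89% lower. With BRL replicate 1 left out as well, a fit chosen after the data were seen, 2 members were higher, Ndufa12 (0.45, adjusted p = 0.0197) and Ndufaf4 (0.30, adjusted p = 0.0375), which is 4.44% of members where 7.21% of all genes were higher and 7.29% lower. Over the 15 alternatives the adjusted p of Ndufa12 ranged over 0.00428 to 0.294 and that of Ndufaf4 over 0.0375 to 0.654. Of the 16 members called without BRL replicate 1, 1 passed in this fit.

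**Figure D4:**
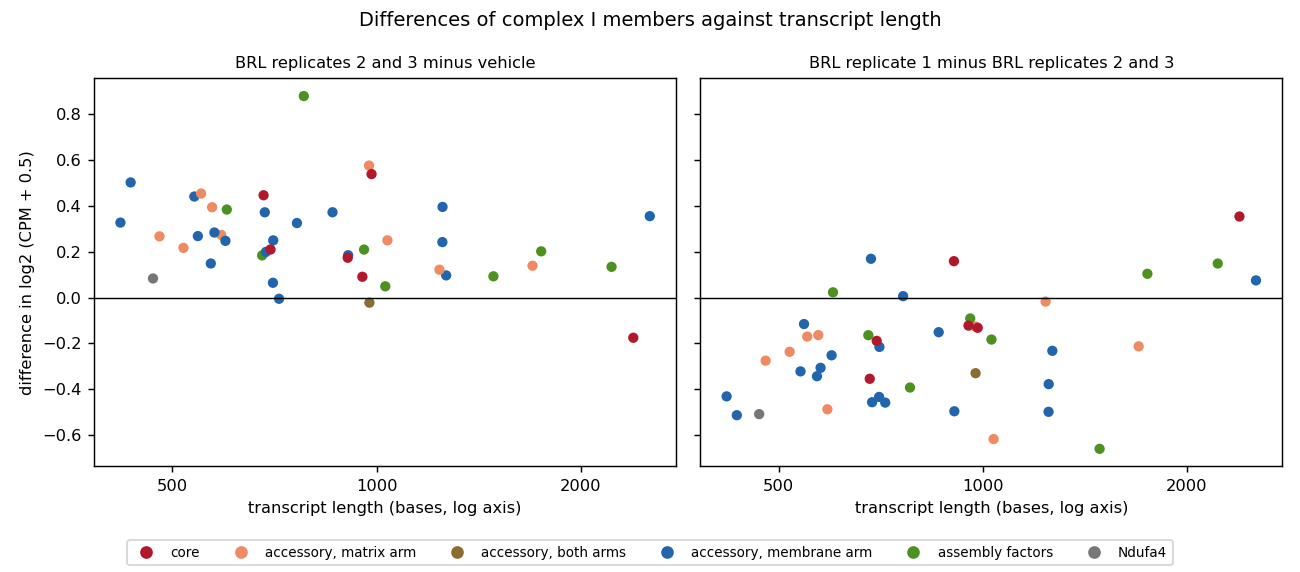
Difference in log2 (CPM + 0.5) of tested members against transcript length on a log axis: the mean of BRL replicates 2 and 3 minus the vehicle mean (left), and BRL replicate 1 minus the mean of BRL replicates 2 and 3 (right). On the left nearly all members lie above 0, and on the right most lie below 0.

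Levels of different genes were compared per length, as TPM, the length-corrected share of each library's transcripts, taken from the deposited fraction. Ndufa4 led in every library, at 799 ± 48.0 TPM (mean ± SD over all 6 libraries, n = 6), followed in every library by Ndufb9 at 482 ± 59.5 TPM. Ndufab1 (364 ± 24.6 TPM) and Ndufb11 (321 ± 11.99 TPM) were also among the most abundant. The lowest core subunits were Ndufs7 (62.0 ± 10.2 TPM) and Ndufs8 (58.8 ± 14.6 TPM), with overlapping spreads. Ndufs7 lay above Ndufs8 in every library except BRL replicate 1 (73.9 against 82.5 TPM), and the difference was not tested. Ndufv2 stood at 243 ± 26.6 TPM and its partner Ndufv1 at 128 ± 25.3 TPM. Accessory subunits had a median of 164 TPM (28.6 to 482), core subunits of 144 TPM and assembly factors of 15.7 TPM (7.14 to 45.2). Of the assembly factors Ndufaf4 and Ndufaf2 were the most abundant, at 45.2 ± 10.2 and 40.7 ± 4.68 TPM, and Ndufaf3 and Ndufaf8 the least.

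**Figure D5:**
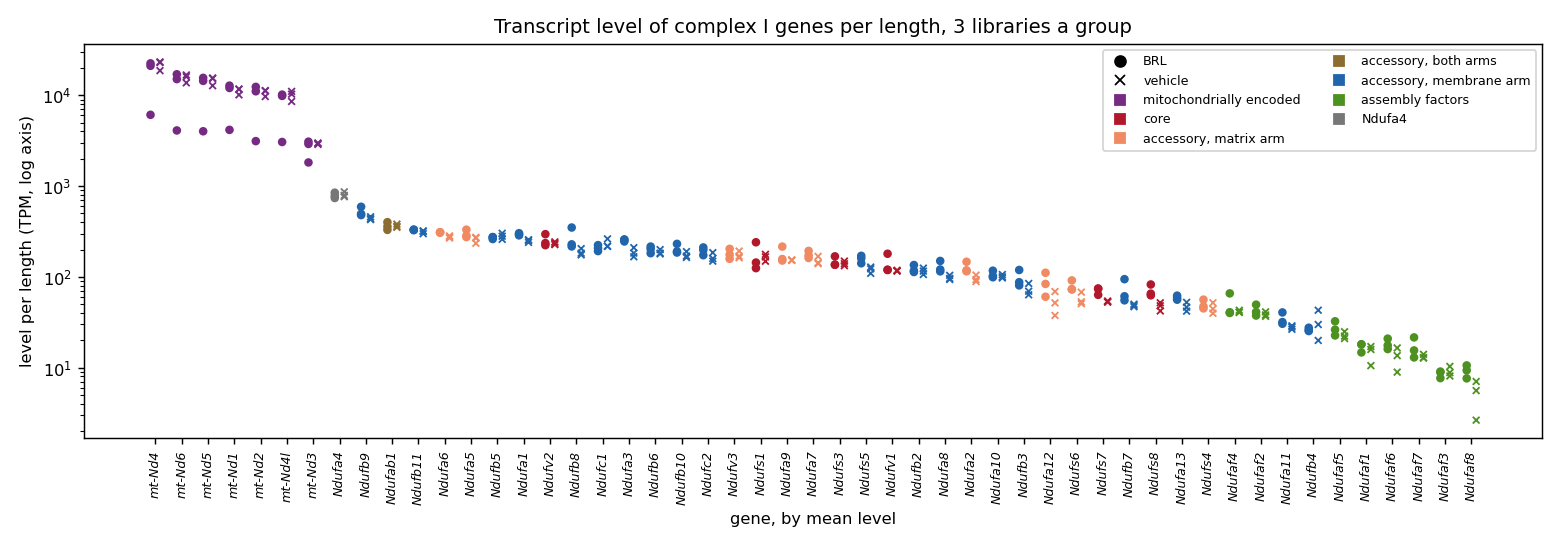
Level per length (TPM, log axis) of Nduf genes and the 7 mitochondrially encoded subunits in each library, with BRL as circles and vehicle as crosses, in order of mean level; Ndufa4l2, under 1 TPM, is left out. Assembly factors (green) lie at the low end, and BRL replicate 1 stands below the other libraries in the mitochondrially encoded genes (purple).

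The 7 core subunits encoded in mitochondrial DNA were far above the nuclear ones and differed in BRL replicate 1. Their summed level was 26420, 93650 and 86630 TPM in BRL replicates 1, 2 and 3, against 76630, 92610 and 90550 TPM in vehicle replicates 1, 2 and 3. The 7 nuclear core genes summed to 1498, 1027 and 1083 TPM in BRL and to 1081, 1045 and 1061 TPM in vehicle. The ratio of the sums was 17.6, 91.2 and 79.99 in BRL and 70.9, 88.6 and 85.3 in vehicle, so that BRL replicate 1 alone lay outside the vehicle range on the low side. TPM sum to 1000000 in each library, so the TPM of nuclear genes in BRL replicate 1 also depend on its lower mitochondrial share. Not every member was higher there, and Ndufv3 had its lowest TPM in that library. How far the nuclear core sum of BRL replicate 1 depends on this share was not tested. None of the 7 passed edgeR in either direction, 0 had an unadjusted p under 0.05, and DESeq2 and limma-voom called 0; the smallest p was that of mt-Nd4l. mt-Nd4l had 318, 1538 and 1396 CPM in BRL replicates 1, 2 and 3, against 1112, 1537 and 1418 CPM in vehicle replicates 1, 2 and 3, a log2 fold change of −0.32 ± 0.47 (SE; adjusted p = 0.731 in edgeR). All 7 lay below 0 with all libraries, at a median log2 fold change of −0.30. Without BRL replicate 1 all 7 lay above 0, at a median of 0.16. In that fit mt-Nd4l had 0.12 and 0 of the 7 passed, with 2 higher at an unadjusted p under 0.05, where 17.8% of all genes were. With the length and GC trend removed as well, a fit chosen after the data were seen, mt-Nd1 and mt-Nd2 were higher, where 7.21% of all genes were (adjusted p = 0.0461 and 0.0452 in edgeR, and at most 0.948 and 0.937 over 14 alternatives). In BRL replicates 1, 2 and 3 mt-Nd1 had 1848, 8289 and 7325 CPM, against 5656, 6992 and 6911 CPM in vehicle. For mt-Nd2 these were 1518, 8774 and 7362 CPM, against 5923, 7372 and 7222 CPM. With all libraries their log2 fold changes were −0.16 ± 0.45 and −0.22 ± 0.51 (SE). Over the alternatives they ranged from −0.51 to 0.335 and from −0.62 to 0.36.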

How the data were processed

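RNA of 6 HL-1 libraries (3 BRL and 3 vehicle) was sequenced after TruSeq preparation from total RNA, per the labels, whose titles give group and replicate number. For each gene the deposited files give an RSEM expected count and a fraction; the fractions of a library sum to 1, and here they were multiplied by 1000000 and called TPM. The submitters' processing notes name cutadapt, Bowtie, RSEM 1.17, edgeR and build NCBIM37; their settings and the strand of counting were not given in the sources used here. RSEM divides reads that fit several loci, and 13 members had counts that were not whole within 0.005 in at least 1 library. The authors' series table was not used.

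After rounding, expected counts were filtered (filterByExpr, minimum count 10) and fitted with TMM factors by the quasi-likelihood F-test of edgeR 4.0.16 under R 4.3.3. P-values were adjusted by Benjamini-Hochberg over 12047 genes, with a threshold of 0.05. A standard error is the size of the log2 fold change divided by the root of F. Alternatives were limma 3.58.1 (voom), DESeq2 1.42.0, other scalings, no filter, a lowess trend on length and GC content removed by offsets (span 0.3), a replicate block and each library left out. The main, replicate block, trend-removed, DESeq2 and voom fits were also run on simulated counts with known fold changes. Those counts held no length or GC trend and no library set apart from the rest. The simulation therefore does not test how the fits handle these features. Symbols, lengths, GC content and exon overlap came from GENCODE M21, which is of another build, and promoters from RefSeq.

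Members, lists and classes were chosen with earlier results of these data known. Full values are given for core subunits (1 of them, counted in the class values, is not reported here), Ndufaf genes, the 8 accessory subunits of smallest p, Ndufa4 and Ndufa4l2, any other member past the threshold, and, of the complex I genes of other name, those past it and the one of smallest p in each list; the rest are given by range and count.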

Additional observations from a re-analysis of the deposited data

How the results depend on the processing

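Over all genes, the numbers called higher and lower, 122 and 216 as reported, were 77 and 143 with library totals in place of TMM factors, which moved the median log2 fold change of all genes to 0.04, 242 and 350 with DESeq2, and 282 and 330 with no filter on low counts. Leaving out 1 library at a time gave 17 to 1240 higher and 15 to 1315 lower, the largest without BRL replicate 1; with the length and GC trend removed as well there were 870 and 879. Members called higher, 0 as reported, were 1 with DESeq2 (Ndufb8), 2 with no filter (Ndufs8 and Ndufa12), 0 to 16 with 1 library left out, and 2 (Ndufa12 and Ndufaf4) without BRL replicate 1 and with the trend removed; members called lower were 0 in each fit. The median log2 fold change of core subunits, 0.15, was 0.037 with the trend removed, 0.048 with BRL replicate 1 left out as well, and 0.23 over members with whole counts only. That of assembly factors, 0.18, was 0.22 with library totals and 0.17 to 0.22 with 1 library left out. That of accessory subunits, 0.18, was 0.10 to 0.27 with 1 library left out, the lowest without BRL replicate 2 and the highest without BRL replicate 1, and 0.07 with the trend removed. Why these values moved was not tested. Signs turned among named members, short of the threshold wherever the sign differed from that reported. Ndufv1, Ndufa11 and Ndufb9 had log2 fold changes of −0.05, −0.08 and −0.0082 without BRL replicate 1 and with the trend removed, Ndufa6, Ndufv3, Ndufb11 and Ndufb6 had −0.04, −0.07, −0.09 and −0.08 with the trend removed, Ndufa4, Ndufaf3 and Ndufb5 had 0.09, 0.10 and 0.07 without BRL replicate 1, and Ndufs1 and Ndufaf1 also took both signs. With the replicate number as a block, 63 genes were higher, 150 lower and 0 members passed. Same-numbered libraries correlated at 0.10, −0.02 and −0.02 in their deviations from the group means. BRL replicate 1 correlated best with vehicle replicate 1, and BRL replicates 2 and 3 each with another number. These correlations are weak, and the deviations sum to 0 within each group. They therefore cannot decide whether the numbers pair the libraries. Ndufaf8 rests on 25 to 42 counts per BRL library and 6 to 14 per vehicle library.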
